A study of Bos taurus with 8 samples.

Results

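The 10 genes described here, AREG, EREG, BTC, PGR, RUNX1, RUNX2, RGS2, SFRP4, OXT and SNAP25, are genes that follicle cells switch on around the preovulatory surge of luteinising hormone (LH) or carry into the luteinised state. They were chosen by symbol, and their values were read from every array probe whose annotated symbol equals one of them. Of the 15229 distinct symbols on the array, 8 were members, with 11 probes. EREG and RUNX2 had no probe under their symbol and were not analysed here. After a filter on dim probes, 7 members with 10 probes stayed among 32472 features tested (14085 named genes and 18387 probes without a symbol). SFRP4 did not pass that filter.

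RNA of granulosa cells, the cells that surround the oocyte and line the follicle wall, was compared between Holstein cows in severe and in mild negative energy balance. Group BHBH held 12 cows classed as severe from high blood beta-hydroxybutyrate, and group BHBL held 12 cows classed as mild from low values. In both groups the cells were aspirated at day 60 postpartum from dominant follicles over 9 mm, 42 h after one PG (prostaglandin) injection. Each group was combined into 4 pools of 3 cows, and the RNA was linearly amplified before 825 ng per pool were labelled. A BHBH pool and a BHBL pool shared an array, and a second array repeated the pair with the dyes swapped. The 8 arrays therefore hold 4 pool pairs. The dyes and the slides coincide, with BHBH in Cy5 on slide 289 and BHBL in Cy5 on slide 288. The labels name no pools, so arrays with the same area number were taken as a pool pair. Pooling leaves the spread between single cows unknown, and neither group was labelled as sampled after an LH surge.

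At the surge, LH acts through its receptor and cyclic AMP on mural granulosa cells. These cells then shed the EGF-like ligands amphiregulin, epiregulin and betacellulin, which carry the signal to the EGF receptor of neighbouring granulosa and cumulus cells. Within hours the progesterone receptor and RUNX factors are induced, genes of follicle growth such as FSHR and CYP19A1 decline, and the cells turn to progesterone synthesis. In ruminants the luteinising granulosa cells also make and secrete oxytocin.

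Median foreground intensity per array lay between 154 and 252 in Cy5 and between 249 and 427 in Cy3. Per channel, 66.8% to 81.4% of probes lay over the threshold called background here, set at 2 SD above the mean negative control spot. All 10 granulosa markers were above background in all 16 channel measurements, and their mean log2 intensity was 12.06 to 12.26 in BHBH pools and 11.62 to 12.38 in BHBL pools. Of these, INHA, INHBA and SERPINE2 were saturated on 4 to 8 arrays in each group. The mean of the 8 epithelial markers stood apart between the groups. Its log2 intensity was 8.79 to 10.51 in BHBH pools and 10.62 to 12.84 in BHBL pools. Marker by marker, CLDN4 and MUC1 did not overlap between the groups and the other 6 did. Among these 6, KRT7 averaged a log2 ratio of -2.66 ± 0.39 (SE, n = 4 pairs; limma adjusted p = 0.869). In a fit of the 8 arrays with a replicate block for the area, its limma adjusted p was 0.00493. That fit applies 1 correlation to all features, and the KRT7 ratios differed among pairs (F-test adjusted p = 6.2e-05), so it counts both arrays of a pair in part as replicates. The means of leukocyte and theca markers overlapped between the groups. The 14 leukocyte markers averaged 9.04 to 10.45 in BHBH pools and 9.42 to 11.01 in BHBL pools. Of the 14, 8 averaged lower and 6 higher in BHBH. Within that list S100A8 and S100A9, neutrophil and monocyte proteins, did not overlap, and the other 12 did. S100A8 had 7.77 to 9.00 in BHBH pools and 9.71 to 12.48 in BHBL pools, and S100A9 had 8.92 to 10.89 in BHBH pools and 11.31 to 13.48 in BHBL pools. The 10 theca and stroma markers averaged 9.04 to 10.98 in BHBH pools and 9.56 to 11.33 in BHBL pools. The median log2 ratio of that list was 1.07, -0.67, -0.83 and -0.97 in pairs 1 to 4. LUM, a stromal proteoglycan on it, averaged -1.32 ± 0.42 and was below 0 on all 8 arrays (limma adjusted p = 0.916). In pair 1 LUM was at -1.02 and so does not stand for the list. PDGFRB did not overlap between the groups and was at 7.02 to 7.19 in BHBH pools and 6.90 to 6.99 in BHBL pools. It lay close to background, above it on 7 BHBH and 2 BHBL arrays. Of all features, 2.93% did not overlap between the groups. The red cell markers (5 of 6 measured) averaged 7.79 to 9.34 in BHBH pools and 7.88 to 9.71 in BHBL pools. Endothelial markers (5 of 6, without PECAM1) and oocyte markers (5 of 6, without GDF9) averaged at most 7.39 and 7.32 in BHBH pools and at most 7.40 and 7.40 in BHBL pools. In such bulk RNA, fewer cells of a type and less RNA per cell cannot be told apart.

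None of the 7 measured members passed the limma test of BHBH over BHBL across 4 pool pairs. The share called at an adjusted p under 0.05 was 0% over all features (0 of 32472), and at an unadjusted p under 0.05 it was 5.12% over all features and 0 of 7 members. No used probe of a member had the same sign in all 4 pairs, against 15.1% of all features, and none had BHBH and BHBL pools that did not overlap, against 2.93%. Ratios of most members differed from one pool pair to the next, as did those of most named genes. AREG, BTC, PGR, RGS2 and SNAP25, 5 of 7, had ratios that differed among pool pairs by more than the spread between dye-swapped arrays (limma F-test, adjusted p under 0.05), against 47.4% of all features and 58.7% of named genes. That F-test sets differences among these pool pairs against technical spread and does not test the conditions. Of the members, 5 averaged lower and 2 averaged higher in BHBH, with a median log2 ratio of -0.30. Beside them, 54.7% of named genes averaged lower (median -0.02) and 51.8% of all features (median -0.01). The members' median was 0.06, -0.52, -0.03 and -0.21 in pairs 1 to 4.

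**Figure D1:**
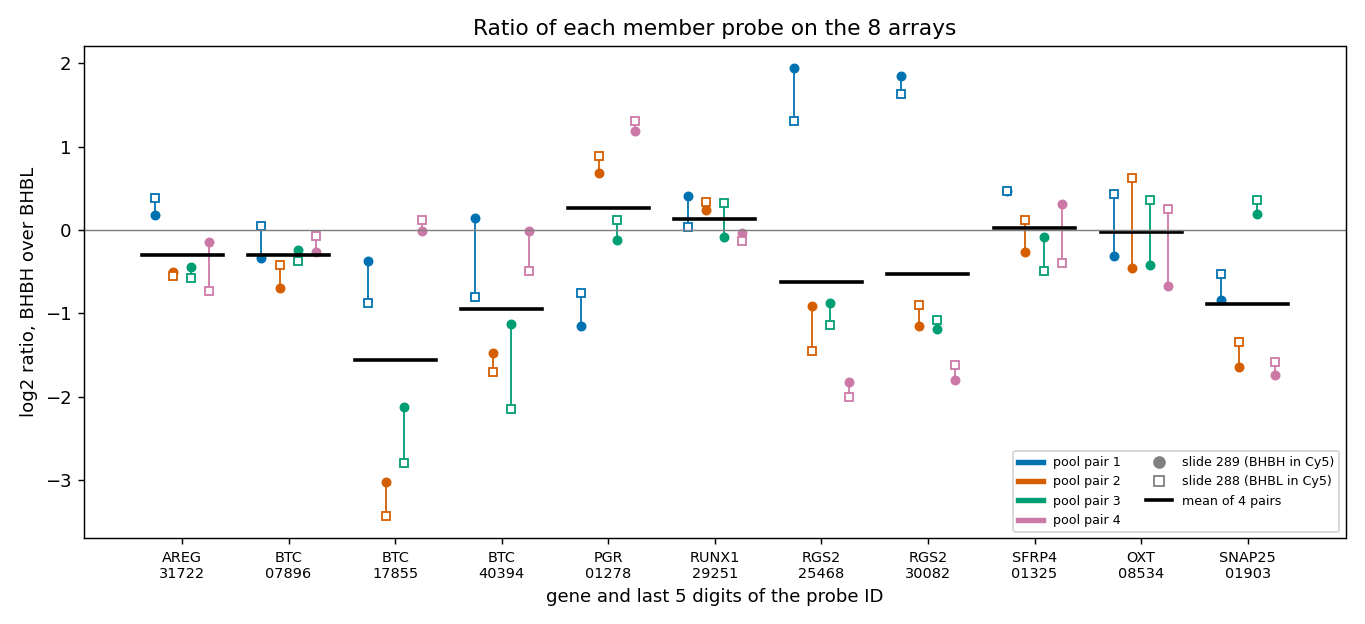
The log2 ratio BHBH over BHBL (vertical axis) is plotted for each member probe (horizontal axis) on the 8 arrays, coloured by pool pair, with filled circles for slide 289, open squares for slide 288, a line joining both arrays of a pair and a black bar at the mean of 4 pairs. Both RGS2 probes sit above 0 in pair 1 and below 0 in the other pairs, and the OXT squares lie above its circles in every pair.

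Among the EGF-like ligands, BTC had the widest group difference of the members and AREG a narrow one, and neither passed the test. BTC encodes betacellulin, a ligand of the EGF receptor and of ERBB4. On its brightest probe (EMBV3_17855) BTC had log2 intensities of 7.74, 7.02, 7.46 and 8.16 in BHBH pools 1 to 4, against 8.36, 10.25, 9.92 and 8.11 in BHBL pools 1 to 4. BHBL pools 2 and 3 stood highest, and the groups overlapped only because BHBH pool 4 lay just above BHBL pool 4. The pair ratios were -0.62, -3.23, -2.46 and 0.05. They averaged -1.56 ± 0.61 (SE, 95% CI -3.15 to 0.02), a 2.96-fold lower mean in BHBH (limma adjusted p = 0.916). The mean rests on pairs 2 and 3, and without pair 2 it was -1.01. The ratios differed among pairs with an F-test adjusted p of 3.60e-07.

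The BHBH signals of that probe lay close to background. Their median was 1.36 times the threshold in BHBH and 4.41 times in BHBL, although all 8 arrays were above it in both groups. The further BTC probes were dimmer. Probe EMBV3_40394 was above background on 2 arrays in BHBH and on 7 in BHBL, with pair ratios of -0.33, -1.59, -1.64 and -0.25. Probe EMBV3_07896 had pair ratios of -0.14, -0.56, -0.31 and -0.17. Both were below 0 in all 4 pairs, as were 7.88% of all probes kept. On EMBV3_07896 the BHBH pools spanned 7.01 to 7.16 and did not overlap the BHBL pools at 7.17 to 7.71, as for 2.93% of all features. That probe lay at background, with median signals of 1.06 times the threshold in BHBH and 1.27 times in BHBL. It was above background on 6 BHBH and 8 BHBL arrays. Probe EMBV3_17855 is thus the only BTC probe with a pair above 0, and the mean over the 3 probes was -0.94. Epithelial markers are set beside these values. Their median ratios in pairs 1 to 4 were -2.42, -3.44, -3.83 and -1.99, so pairs 2 and 3 were also the lowest of that list, and their part in the BTC values was not tested.

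AREG encodes amphiregulin, an EGF-like ligand induced by the surge in granulosa cells. Its single probe (EMBV3_31722) had log2 intensities of 7.41, 7.40, 7.41 and 7.53 in BHBH pools, against 7.13, 7.93, 7.92 and 7.97 in BHBL pools. The BHBH pools were nearly level, and BHBL pool 1 alone lay below all of them. The pair ratios were 0.28, -0.52, -0.51 and -0.44. The mean was -0.30 ± 0.17 (SE, 95% CI -0.73 to 0.14; limma adjusted p = 0.917), and without pair 1 it was -0.49. The F-test among pairs gave an adjusted p of 0.00871. The signal was low, with a median of 1.37 times the threshold in BHBH and 1.88 times in BHBL. Of the BHBL arrays, 1 was below background, that of pool 1 on slide 288, in the only pair above 0.

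In the RefSeq gene table for ARS-UCD2.0, EREG, AREG and BTC lie on the same chromosome in that order. Between EREG and AREG it lists 2 genes, 0 of them protein coding, and between AREG and BTC it lists 0. The AREG and BTC ratios nonetheless differed in size in pairs 2 and 3, where BTC was at -3.23 and -2.46 and AREG at -0.52 and -0.51.

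**Figure D2:**
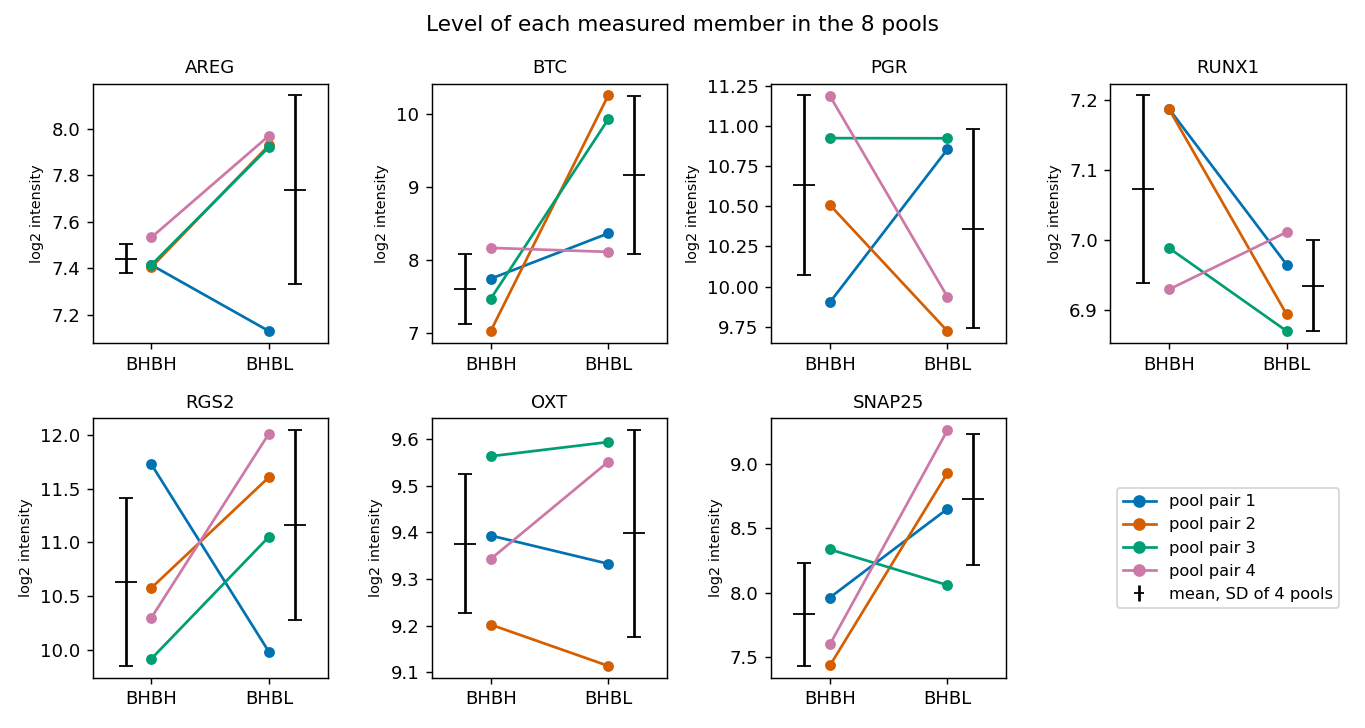
Each panel plots the log2 intensity (vertical axis) of a measured member in the 4 BHBH pools on the left and the 4 BHBL pools on the right, with lines joining the pools of a pair and black marks at the mean with SD. BTC lines 2 and 3 climb to 10.25 and 9.92 in BHBL, and PGR and RGS2 lines cross in opposite senses.

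Of the other EGF receptor ligands, the receptors, the sheddases and the feedback regulators, 13 of 18 listed genes were measured, of which 10 averaged lower and 3 higher in BHBH and 0 passed the test. ERBB3, a receptor partner with little kinase activity of its own, had pair ratios of -0.30, -4.06, -3.32 and -1.27 and a mean of -2.24 ± 0.69 (SE; limma adjusted p = 0.916). As for BTC, pairs 2 and 3 were the lowest. EGFR, the receptor for amphiregulin and betacellulin, averaged -0.21 ± 0.10 (adjusted p = 0.916). HBEGF, another EGFR ligand, averaged -0.53 ± 0.13 with all 4 pairs below 0, and was above background on 4 BHBH and 8 BHBL arrays. SPRY2, a feedback inhibitor of receptor tyrosine kinase signalling, averaged 0.25 ± 0.08 with all 4 pairs above 0. Neither HBEGF nor SPRY2 passed, at an adjusted p of 0.916 for both.

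Among the transcription factors, PGR was brightly measured and opposed between pool pairs. PGR encodes the nuclear progesterone receptor, which mice need for follicle rupture. Its probe (EMBV3_01278) had log2 intensities of 9.90, 10.51, 10.92 and 11.19 in BHBH pools, against 10.86, 9.72, 10.92 and 9.94 in BHBL pools. The groups overlapped throughout, with the highest value in BHBH pool 4 and the lowest in BHBL pool 2. The pair ratios were -0.95, 0.78, 0.00 and 1.25. The mean was 0.27 ± 0.39 (SE, 95% CI -0.73 to 1.27; limma adjusted p = 0.961). Leaving out one pair at a time moved it between -0.06 (without pair 4) and 0.68 (without pair 1), so its sign rests on pair 4. The arrays of a pair differed little from each other, with a technical SD of 0.08, and the F-test among pairs gave an adjusted p of 1.55e-06. Median signals were 14.1 times the threshold in BHBH and 10.4 times in BHBL.

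RUNX1, a transcription factor that the surge induces in rodent and bovine granulosa cells, was near the limit of detection. Its probe (EMBV3_29251) was above background on 4 BHBH and 2 BHBL arrays. Log2 intensities were 7.19, 7.19, 6.99 and 6.93 in BHBH pools, against 6.96, 6.89, 6.87 and 7.01 in BHBL pools. These pools overlapped and spanned only 1.25-fold. Pair ratios were 0.22, 0.29, 0.12 and -0.08, with a mean of 0.14 ± 0.09 (SE, 95% CI -0.10 to 0.38; limma adjusted p = 0.918). The F-test among pairs was not passed (adjusted p = 0.353).

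Of the other surge transcription factors and their partners, 19 of 22 were measured, 11 lower and 8 higher on average, and 0 passed. NR4A1, an orphan nuclear receptor induced early by LH, had pair ratios of 0.01, -1.95, -1.12 and -1.55 with a mean of -1.15 ± 0.34 (SE; limma adjusted p = 0.916). The progesterone receptor membrane component genes averaged on opposite sides of 0. PGRMC1 was at -0.57 ± 0.18 (-0.37 over all its probes) with all 4 pairs below 0, and PGRMC2 at 0.23 ± 0.08 (0.15 over all its probes) with all 4 pairs above 0, each with an adjusted p of 0.916.

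RGS2 spanned the widest pair range of the members. It encodes a regulator of G-protein signalling that speeds the shut-off of G-alpha-q and is induced by gonadotrophins in bovine and rodent granulosa cells. The brighter probe (EMBV3_30082) had log2 intensities of 11.72, 10.58, 9.92 and 10.30 in BHBH pools, against 9.99, 11.61, 11.05 and 12.01 in BHBL pools. BHBH pool 1 and BHBL pools 2 to 4 were high, and the groups overlapped. Pair ratios were 1.74, -1.03, -1.13 and -1.71. The mean was -0.53 ± 0.61 (SE, 95% CI -2.12 to 1.06; limma adjusted p = 0.945). Without pair 1 it was -1.29, and without pair 4 it was -0.14.

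The second RGS2 probe (EMBV3_25468) gave the same order of sign, at 1.63, -1.18, -1.01 and -1.91, with a mean of -0.62. The F-test among pairs gave an adjusted p of 8.50e-08 for the brighter probe. The RefSeq table lists a further locus, LOC513055, with RGS2 among its synonyms, so which of both loci these probes read is uncertain. Theca and stroma markers had median ratios of 1.07, -0.67, -0.83 and -0.97 in pairs 1 to 4. Of the 10, 4 (COL1A2, COL3A1, DCN and PDGFRA) had the signs of RGS2 in each pair, and the other 6 did not. Leukocyte markers had medians of 0.77, -0.31, 0.48 and -1.87. The part of either in the RGS2 values was not tested.

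PGR and RGS2 were on opposite sides of 0 in pairs 1, 2 and 4. PGR was at -0.95, 0.78 and 1.25 in those pairs, and RGS2 at 1.74, -1.03 and -1.71. In pair 3 PGR was at 0.00 and RGS2 at -1.13. Among the other RGS genes, of 11 listed, 10 were measured, 3 lower and 7 higher in their mean (median 0.14), and 0 passed the test. RGS20 had pair ratios of 1.22, 0.42, 0.59 and -0.80, RGS4 averaged 0.24 ± 0.12 and RGS12 averaged 0.22 ± 0.10 (SE; limma adjusted p = 0.934, 0.916 and 0.916). RGS4 was above background on 6 BHBH and 2 BHBL arrays.

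SFRP4, a secreted frizzled-related protein that binds WNT ligands and rises in luteinised rodent granulosa cells, gave no usable level. Its probe (EMBV3_01325) was above background on 0 BHBH and 1 BHBL arrays of 8, with median signals of 0.835 and 0.784 times the threshold in BHBH and BHBL. No fold is given. Around it, 21 of 24 WNT pathway genes were measured, 14 lower and 7 higher on average (median -0.13), and 0 passed. FZD2, a WNT receptor, averaged -0.24 ± 0.09, AXIN2, a target and inhibitor of the pathway, averaged -0.33 ± 0.14 and WNT11 averaged -0.19 ± 0.09, each with a limma adjusted p of 0.916 and all 4 pairs below 0. They were named for the smallest unadjusted p on the list, which favours pairs of the same sign. By array, FZD2 was below 0 on 4 of 8, and AXIN2 and WNT11 on 6 of 8. FZD2 was above background on 5 BHBH and 8 BHBL arrays, and WNT11 on 4 BHBH and 7 BHBL arrays. SFRP1 and SFRP2, relatives of SFRP4, were named after their values were seen. SFRP1 had pair ratios of 0.29, -3.49, -0.50 and -0.42 and a mean of -1.03 ± 0.67 (limma adjusted p = 0.917), which was -0.21 without pair 2. SFRP2 had pair ratios of -0.02, 0.34, -0.52 and -2.99 and a mean of -0.80 ± 0.60 (adjusted p = 0.920), which was -0.07 without pair 4. Each mean thus rests on a single pair.

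**Figure D3:**
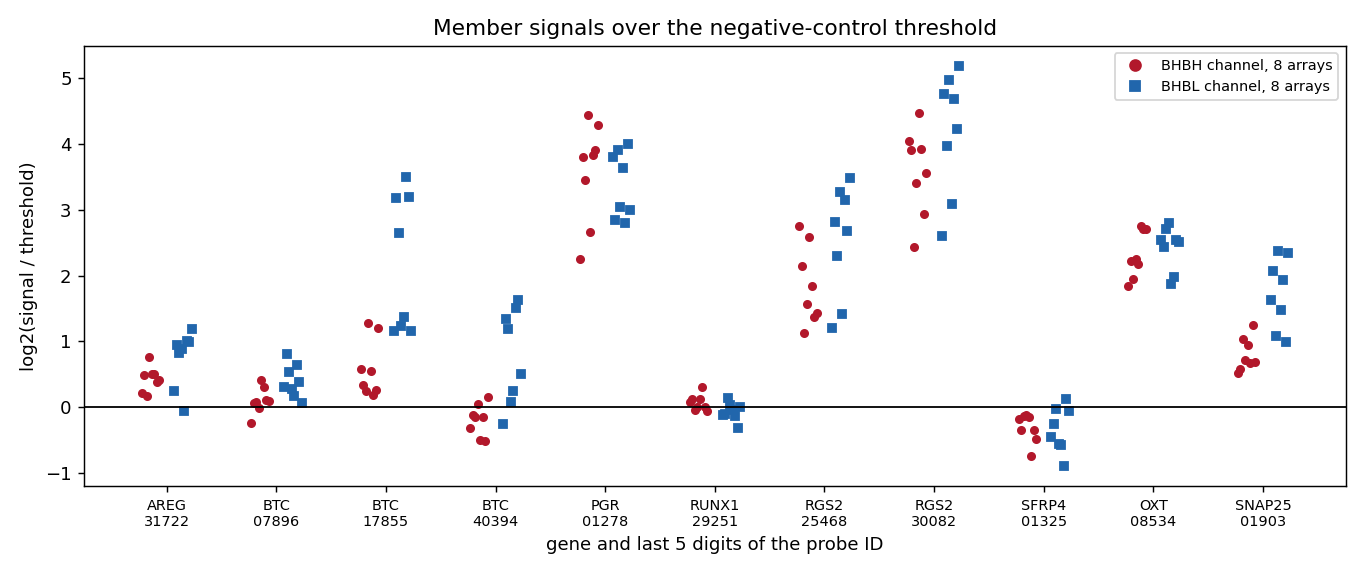
The log2 of background-corrected signal over the negative-control threshold (vertical axis) is plotted for each member probe (horizontal axis) on 8 arrays, with red circles for BHBH and blue squares for BHBL, and the line at 0 marks the threshold. PGR, RGS2 and OXT lie above the line on every array, while RUNX1 is above it in 6 of 16 measurements and SFRP4 in 1 of 16 and the brightest BTC probe lies nearer to it in BHBH than in BHBL.

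OXT had the narrowest range of pair ratios among the members, at 0.30 log2 units, followed by RUNX1 at 0.38. It encodes the precursor of oxytocin and its carrier neurophysin. Its probe (EMBV3_08534) had log2 intensities of 9.39, 9.20, 9.56 and 9.34 in BHBH pools, against 9.33, 9.11, 9.59 and 9.55 in BHBL pools. The groups overlapped, and all 8 pools lay within 1.40-fold. Pair ratios were 0.06, 0.09, -0.03 and -0.21. The mean was -0.02 ± 0.09 (SE, 95% CI -0.24 to 0.20; limma adjusted p = 0.991). The F-test among pairs gave an adjusted p of 0.338.

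The OXT ratio depended on the slide, and therefore on the dye. The ratios were -0.31, -0.45, -0.42 and -0.67 on slide 289, where BHBH was in Cy5, and 0.44, 0.63, 0.36 and 0.25 on slide 288. The joint term of dye and slide was -0.44 (limma adjusted p = 0.000222), and 34.5% of all features passed that test. Averaging both arrays of a pair balances this term. Dye and slide cannot be told apart.

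SNAP25 encodes a SNARE protein of regulated secretion and has been placed downstream of the progesterone receptor in rodent granulosa cells. Its probe (EMBV3_01903) had log2 intensities of 7.96, 7.44, 8.34 and 7.60 in BHBH pools, against 8.65, 8.93, 8.06 and 9.26 in BHBL pools. Pool pair 3 alone was higher in BHBH, and the groups overlapped by that pair. The pair ratios were -0.69, -1.49, 0.28 and -1.66. They averaged -0.89 ± 0.36 (SE, 95% CI -1.82 to 0.03), a 1.86-fold lower mean in BHBH (limma adjusted p = 0.916). The pairs differed with an F-test adjusted p of 2.48e-06 against a technical SD of 0.06. Median signals were 1.62 times the threshold in BHBH and 3.45 times in BHBL. Set beside PGR, SNAP25 was opposite in sign in pairs 2 and 4, at -1.49 and -1.66 for SNAP25 and 0.78 and 1.25 for PGR. In pair 1 both were below 0, at -0.69 and -0.95, and in pair 3 SNAP25 was at 0.28 and PGR at 0.00.

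Of the genes for oxytocin processing and regulated secretion, 24 of 28 were measured, 17 lower and 7 higher on average, and 0 passed. SCG5, a chaperone of a prohormone convertase, had pair ratios of -0.75, -0.29, -0.87 and -0.49, below 0 on all 8 arrays. It averaged -0.60 ± 0.12 (SE; limma adjusted p = 0.916), and its other probe averaged -0.76. CPE, which trims processed prohormones, averaged -0.30 ± 0.11, and NAPA, a SNARE recycling factor, averaged -0.22 ± 0.10, both below 0 in 4 of 4 pairs. OXTR, the oxytocin receptor, averaged -0.06 ± 0.13 (adjusted p = 0.979).

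For each member whose pairs spanned over 1 log2 unit, the 3 named genes with the most similar levels over the 8 pools were taken by Pearson r. The values describe likeness only, since both pools of a pair share arrays and each r was picked as one of the highest among all named genes. Nearest to BTC were ESRP1 (r = 0.975), an epithelial splicing regulator, DERL3 (0.969) and ACOX2 (0.964). ESRP1 had pair ratios of -0.81, -2.76, -2.34 and -0.76. Those of DERL3 were -0.03, -0.70, -0.35 and 0.03, and those of ACOX2 were 0.04, -0.65, -0.52 and -0.12. Nearest to PGR were MRPL37 (0.989), PPIC (0.985) and EPDR1 (0.984). Nearest to RGS2 were LYSMD2 (0.978), LRRFIP1 (0.973) and XIRP1 (0.960), the last with pair ratios of 2.52, -1.42, -1.78 and -2.61. Nearest to SNAP25 were ZGLP1 (0.947), CDC42SE2 (0.932) and SLC2A1 (0.931), the glucose transporter GLUT1, with pair ratios of -0.31, -0.34, -0.05 and -0.65. The ranges of DERL3 and ACOX2 were narrower than that of BTC, and those of ZGLP1, CDC42SE2 and SLC2A1 narrower than that of SNAP25. A likeness in r does not speak of size.

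**Figure D4:**
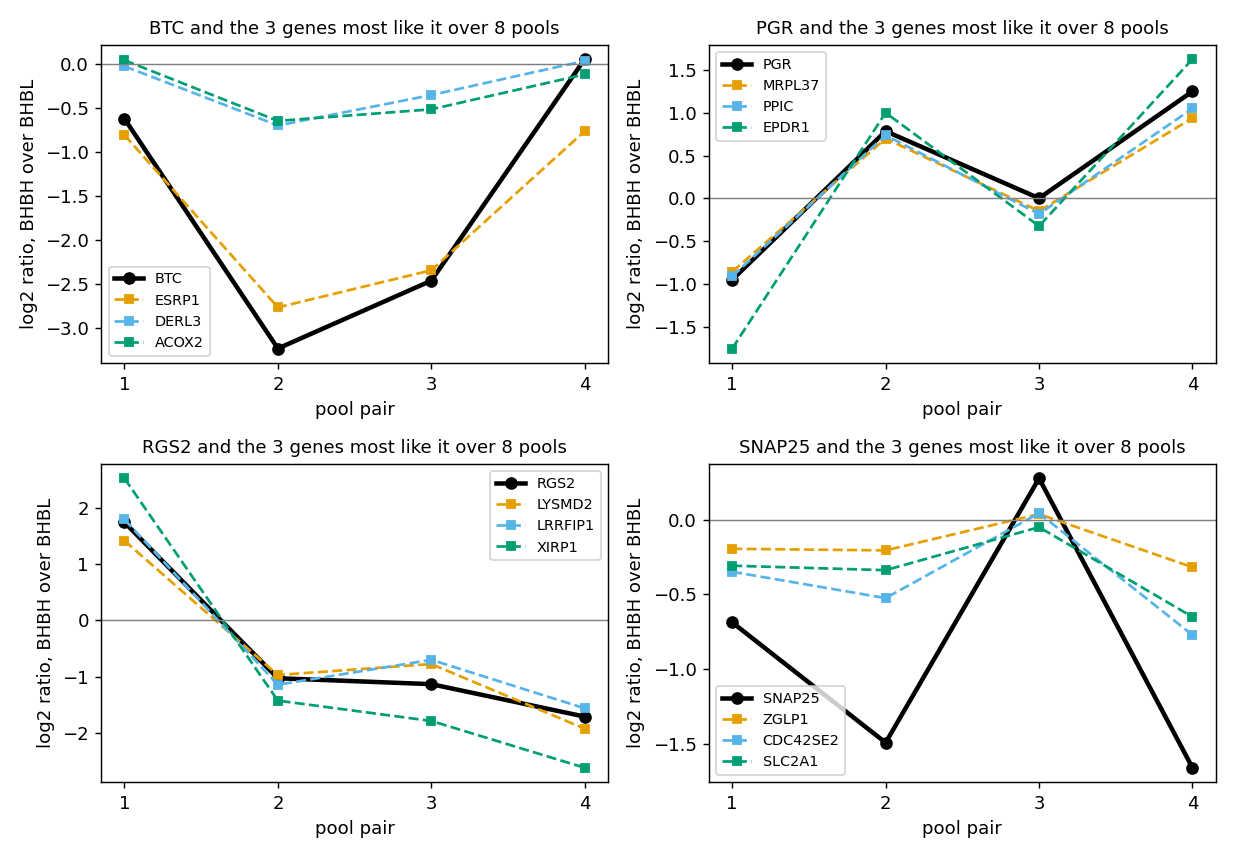
Each panel plots the log2 ratio BHBH over BHBL (vertical axis) in pool pairs 1 to 4 (horizontal axis) for a member in black and the 3 genes most like it in colour. BTC and ESRP1 dip together in pairs 2 and 3, while PGR and RGS2 start pair 1 on opposite sides of 0 at -0.95 and 1.74.

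Pool pairs also differed in the other genes of the surge pathway. Over all 9 lists, 154 of 179 genes were measured, 81 lower and 73 higher on average (median -0.03), and 0 passed the test. At an unadjusted p under 0.05, 11 were lower and 4 higher, beside 638 lower and 214 higher among the 14085 named genes. The ratios of 72.7% of the measured pathway genes differed among pool pairs, against 71.4% of the 7 members, 58.7% of named genes and 47.4% of all features.

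Upstream of the members, 20 of 22 genes of LH receptor and cAMP signalling were measured, 6 lower and 14 higher with a median of 0.03. LHCGR, the LH receptor, had pair ratios of -0.39, 0.73, 1.55 and -0.04 and a mean of 0.46 ± 0.35 (SE; limma adjusted p = 0.921), or 0.30 over all its probes. CREB1, a transcription factor activated by cAMP, averaged -0.27 ± 0.11, GNAQ averaged 0.17 ± 0.08 and PRKAR2B, a regulatory subunit of protein kinase A, averaged 0.47 ± 0.30, with adjusted p from 0.916 to 0.917.

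Downstream, 19 of 22 surge-induced effectors were measured, 10 lower and 9 higher. PLAT, tissue plasminogen activator, had pair ratios of -0.76, -1.84, -1.63 and -1.78 and was lower on all 8 arrays. It averaged -1.50 ± 0.21 (SE; limma adjusted p = 0.843). HPGD, which inactivates prostaglandins, averaged -1.61 ± 0.34 on its brightest probe (adjusted p = 0.916) and was lower on all 8 arrays. Its 4 further probes averaged -0.38, and the mean over all its probes was -0.63. VCAN, the matrix proteoglycan versican, averaged 0.92 ± 0.21 (adjusted p = 0.916) and was higher on all 8 arrays. With the 8 arrays fitted separately and a random replicate block for the area, 0.37% of all features passed. Among them were PLAT (adjusted p = 0.00493), HPGD (0.0256) and VCAN (0.0430), and 0 of the 7 members. The block fit applies 1 correlation to all features, so where pairs differ strongly it counts both arrays of a pair in part as replicates. PLAT, HPGD and VCAN did differ among pairs (F-test adjusted p of 0.00024, 4.2e-06 and 0.00027). The same 3 genes also passed with 8 separate ratios and no block, a fit that counts both dye-swapped arrays of a pair as replicates. With the 4 pool pairs as replicates, 0 of 32472 features passed. PTGS2, the surge-induced cyclooxygenase, was above background on 4 arrays in each group, with a mean of -0.08 ± 0.16.

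Of the luteinised cell genes, 15 of 18 were measured, 9 lower and 6 higher, and 0 passed. STAR, which delivers cholesterol to the mitochondria, had pair ratios of 3.10, -0.28, -0.02 and -1.36. CYP11A1, which makes pregnenolone, had -1.74, 0.87, -1.75 and 1.13, and HSD3B1, the next step to progesterone, had -1.61, 0.09, 0.27 and 0.59. In pair 1 STAR was thus higher in BHBH, as RGS2 was, while CYP11A1 and HSD3B1 were lower. RBP4 averaged -0.38 ± 0.16, INSL3 averaged 0.23 ± 0.13 and TIMP3 averaged -0.30 ± 0.19 (SE; limma adjusted p from 0.916 to 0.917).

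The genes that the surge is known to lower leaned to the other side of 0 on average. Of 16, 15 were measured, 2 lower and 13 higher with a median of 0.18, and 0 passed. Their median was -0.61, 0.42, 0.05 and 0.96 in pairs 1 to 4, the same order as PGR at -0.95, 0.78, 0.00 and 1.25. FSHR, the FSH receptor, had pair ratios of -1.55, 1.27, -0.45 and 1.99, and CYP19A1, aromatase, had -1.35, 0.63, -1.41 and 1.27. On all CYP19A1 probes together the mean was 0.19, against -0.21 on the brightest. ESR2 averaged 0.30 ± 0.17 and FOXL2 averaged 0.24 ± 0.14 (SE; limma adjusted p = 0.916 and 0.917). INHA was saturated on 6 of 8 arrays in BHBH and on 6 of 8 in BHBL, and INHBA on 7 in BHBH and 4 in BHBL. Saturation limits their ratios, which still count in this list and among the granulosa markers. SERPINE2, saturated on 8 arrays in BHBH and 4 in BHBL, also counts among the granulosa markers. The granulosa marker median ran at -0.37, 0.32, 0.06 and 0.56 over these 4 pairs. Of the 10 granulosa markers, 7 also stand on the list of genes lowered after the surge (43.8% of its 16), so these medians are not independent. Without those 7, the 8 measured genes left had medians of -0.69, 0.32, 0.03 and 0.90. The part of granulosa content in these values was not tested.

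**Figure D5:**
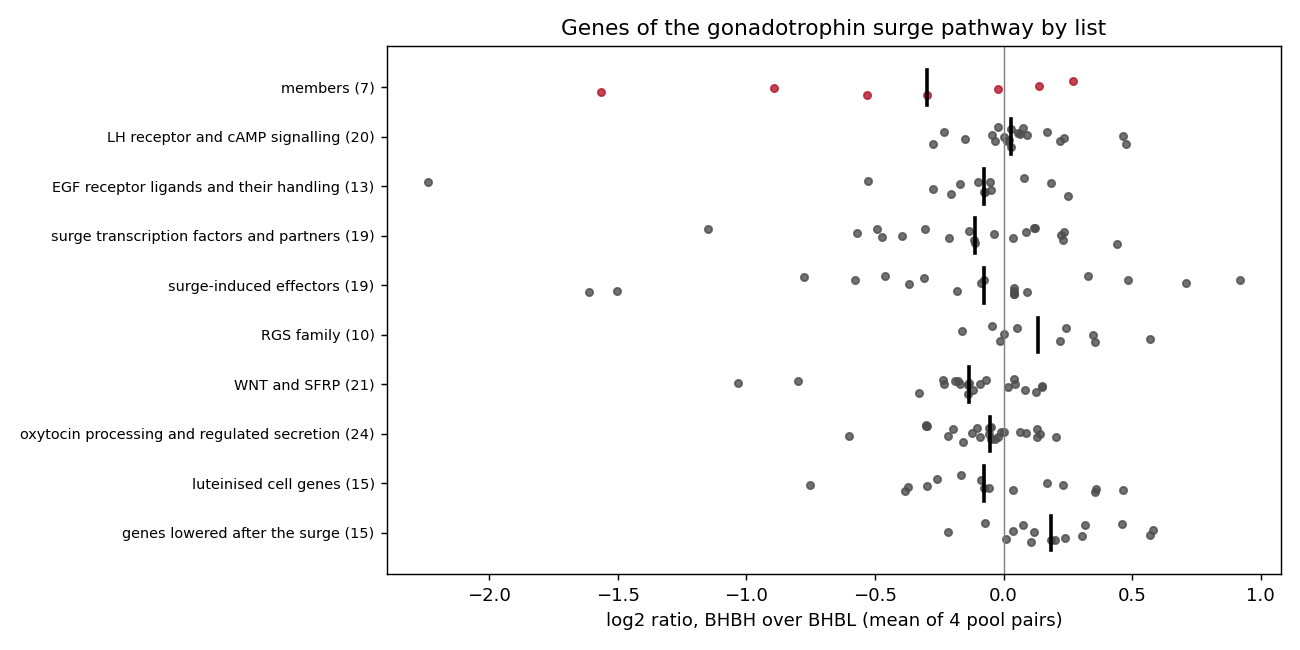
Each point is a gene's mean log2 ratio BHBH over BHBL (horizontal axis) for the 7 measured members (top, red) and the 9 pathway lists below (grey), with the number measured in brackets and a black bar at the median. The medians lie between -0.30 for the members and 0.18 for the genes lowered after the surge, and 0 of the genes shown passed the test.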

How the data were processed

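Intensity was read from the deposited scanner output, which holds, per the file headers, median foreground and local background of each spot at 532 nm (Cy3) and 635 nm (Cy5). The deposited series table holds log2 ratios, per the file headers and their values. Its direction matched BHBH over BHBL for either slide. It had array medians of -0.0142 to 0.0396 and served as an alternative only. The submitters' processing notes name limma with no version. How the authors corrected background and normalised was not given in the sources used here.

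Each array held 45212 spots, 1418 of them controls (153 negative), leaving 43794 probes. Of these, 21790 carried 1 gene symbol and 22004 carried none. In R 4.3.3 with limma 3.58.1, jsonlite 2.0.0 and version 1.17.8 of data.table, intensities were corrected with normexp (offset 50). Ratios were normalised by loess with controls at weight 0 and turned to BHBH over BHBL. Both arrays of an area were averaged. A probe was kept where, on 4 or more of 8 arrays, BHBH or BHBL signal lay 2 SD above the negative controls' mean (37909 probes), and a gene was its brightest kept probe. The 4 ratios were tested against 0 with lmFit and eBayes, with Benjamini-Hochberg adjustment over all features. The F-test among pairs used the 8 arrays with a joint term for dye and slide. Levels are per-channel log2 intensities after loess and Aquantile, averaged over dyes. An exact sign-flip test of 4 pairs cannot go below a two-sided p of 0.125. The number of arrays limits precision. After each slide's mean was removed, arrays of the same area correlated across features at r = 0.843 to 0.892 and of other areas at -0.52 to -0.0299.

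The members and lists were chosen with earlier results of these data known. Genes named are the members with every probe, up to 3 genes per list by unadjusted p, the 3 genes most like each member whose pairs spanned over 1 log2 unit, and a set of steroidogenic, receptor and marker genes. The alternatives were other background, normalisation and probe choices, each slide, the replicate block and each pair left out. Their use for the pathway count and for named genes other than members was added after seeing the data. The procedure was tested on simulated data. The array annotation gave no sequences or coordinates.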

Additional observations from a re-analysis of the deposited data

Results flagged for a closer look

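In 94 groups of 4 values, 11 held a value far from the other 3 by Dixon's 95% limit, and chance alone marks about 1 in 20 groups. AREG stood out in its ratios and in both groups' levels. Its ratio in pair 1 was 0.28, against -0.52 to -0.44 in the other pairs. Among its levels, BHBH pool 4 at 7.53 lay above the others at 7.40 to 7.41, and BHBL pool 1 at 7.13 lay below the others at 7.92 to 7.97. The pair 1 ratio is taken over BHBL pool 1, so both flags share a measurement. On BTC probe EMBV3_07896, BHBH pool 4 at 7.01 lay below the others at 7.14 to 7.16.

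Pair 1 stood apart for the theca and stroma marker median (1.07, others -0.97 to -0.67), for PGRMC1 (-1.21, others -0.42 to -0.28) and for HPGD (-0.33, others -2.11 to -1.99). Pair 2 stood apart for the endothelial marker median (-0.26, others 0.05 to 0.09), for SPRY2 (0.40, others 0.19 to 0.22) and for TIMP3 (-0.97, others -0.13 to 0.00). Pair 3 stood apart for FZD2 (-0.0098, others -0.33 to -0.29).

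The OXT ratio differed between slide 289 and slide 288, with opposite signs on all arrays and a joint dye and slide term of -0.44.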

How the results depend on the processing

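No member passed the test under any alternative run, and the lowest limma adjusted p was 0.154 (OXT), 0.187 (BTC) and 0.20 (SNAP25). The BTC value came from 8 separate ratios with no block. OXT moved from -0.46 on slide 289 alone to 0.42 on slide 288 alone, and on a single slide dye and group coincide. Its limma adjusted p over the 4 pool pairs was 0.991. AREG, BTC, RGS2, SNAP25 and RUNX1 kept their sign under every alternative that measured them, within -0.49 to -0.22, -2.10 to -0.94, -1.29 to -0.14, -1.28 to -0.63 and 0.05 to 0.23. RUNX1 was not kept where all 8 arrays had to be above background. The members' median stayed between -0.49 and -0.14. Features differing among pairs numbered 13305 to 17689, and pathway genes lower on average 73 to 93. Called features numbered 0 except 120 with a replicate block for the area (114 lower, 6 higher) and 215 with 8 separate ratios (191 lower, 24 higher), and 0 to 0 with 1 pair left out. Among the genes named, PLAT, HPGD, VCAN and KRT7 passed in both of those fits of 8 arrays, and SCG5 in the fit without the replicate block. That fit without the block counts both dye-swapped arrays of a pair as replicates. The fit with the block, which applies 1 correlation to all features, does so in part for genes whose pairs differ strongly. Signs reversed on slide 288 alone for CD163 (-0.013), ESR2 (-0.013), HSD3B1 (0.075), INHA (-0.23, a saturated probe), OXT (0.42) and OXTR (0.16), and on slide 289 alone for CREB1 (0.068) and FZD2 (0.11). They also reversed for CD163 with array medians (-0.0028), CYP19A1 with the mean of its probes (0.19) and OXT in the deposited ratios (0.048). With 1 pair left out, values that changed sign ranged from -0.055 to 0.68 for PGR, -0.060 to 0.040 for OXT, -0.18 to 0.041 for OXTR, -0.18 to 0.094 for PTGS2, -0.24 to 0.94 for FSHR, -0.55 to 0.93 for STAR, -0.87 to 0.089 for CYP11A1, -0.71 to 0.18 for CYP19A1, -0.41 to 0.32 for HSD3B1, -0.25 to 1.89 for CD14, -0.73 to 1.61 for CD163, -0.77 to 0.053 for PTPRC and -2.81 to 0.21 for HBB. The cause of these reversals was not tested. AREG, BTC, RUNX1 and SNAP25 lay close to background in BHBH, which limits their ratios.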
